A study of Mus musculus with 17 samples.

Results

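The 43 genes described here carry out cell division and DNA replication. They were chosen by name and are 43 of 27020 genes measured by RNA sequencing of 17 mouse livers. All 43 were found in the table, and all 43 passed the filter on low values, which asked for a normalized read count of at least 10 in at least 3 libraries and kept 16157 genes. The livers came from mice of 8 weeks in 4 groups. KO_star mice (n = 6) lacked Khdc3 but had heterozygous parents, with both WT and KO animals among their grandparents. WT_star mice (n = 4) had the same mixed descent and were themselves wild type. KO mice (n = 3) lacked Khdc3 and came from a KO line, and WT mice (n = 4) came from a WT line. The design text speaks of the star animals as females and gives no sex for the KO and WT animals. The sources used here give no strain, litter, batch or date, so p-values measure the spread between these livers. Descent cannot be told apart from any shared litter or batch, or from sex where star animals are set against KO or WT animals. Between KO and WT animals, genotype cannot be told apart from line. Libraries are named by group and by the number in their title.

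The labels give the tissue as liver and the cell type as hepatocyte. The 10 hepatocyte markers, among them Alb (albumin) and Apoa1, together reached 2.43 to 3.15 M (mega) normalized reads in KO_star livers, 2.23 to 2.53 M in WT_star livers, 1.90 to 2.22 M in KO livers and 2.89 to 3.02 M in WT livers. Markers of other liver cells were present as well. The 12 sinusoidal endothelial markers summed to 17703 to 23944 over all libraries and the 12 macrophage markers to 6315 to 13742, so the RNA was not of hepatocytes alone. Fewer dividing cells and less RNA of these genes per dividing cell cannot be told apart in such bulk samples. Khdc3 itself had at most 4 reads in any library, KO and WT alike, so it gives no check of the genotype labels in liver. The libraries held 17.62 to 26.7 M reads in genes, and 1 read was worth 0.792 to 1.182 on the normalized scale.

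A cell that is about to copy its DNA first loads the Mcm2-7 helicase onto replication origins with the help of Cdt1, and the E2F transcription factors then switch on the genes for S phase. Pcna clamps the polymerase to the DNA, while ribonucleotide reductase (Rrm1 and Rrm2), Tk1 and Tyms supply the nucleotides. Cyclins A and B with Cdk1 later drive mitosis, the checkpoint kinases and the anaphase-promoting complex time the separation of the chromosomes, and the passenger complex, motors and midzone proteins complete it. Hepatocytes of the adult mouse are mostly at rest, many of them are polyploid, and they return to the cycle after loss of liver mass. E2f8 is an atypical E2F that represses E2F targets and promotes polyploidy in mouse hepatocytes.

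Promoters are shown for 4 members, 1 with the sites typical of replication genes, 2 with the sites typical of mitotic genes, and E2f8, whose RNA moved differently from that of the other members. Each line gives the 120 bases before the annotated start, 5′ to 3′ on the gene's strand, from the RefSeq table of GRCm38.p6. Capitals mark E2F sites (TTTGGCGC or TTTCGCGC, also TTTCCCGC and TTTGCCGC), cell cycle homology regions (TTTGAA or TTCGAA) and the CCAAT box, each on either strand.
Mcm6 (chr1:128359706-128359825, minus strand): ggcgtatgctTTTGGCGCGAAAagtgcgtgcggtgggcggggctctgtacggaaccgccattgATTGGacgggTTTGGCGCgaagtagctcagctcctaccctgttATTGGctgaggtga
Ccnb2 (chr9:70421555-70421674, minus strand): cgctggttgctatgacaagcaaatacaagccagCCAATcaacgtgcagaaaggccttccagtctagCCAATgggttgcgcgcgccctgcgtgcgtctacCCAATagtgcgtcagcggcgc
Cdk1 (chr10:69352913-69353032, minus strand): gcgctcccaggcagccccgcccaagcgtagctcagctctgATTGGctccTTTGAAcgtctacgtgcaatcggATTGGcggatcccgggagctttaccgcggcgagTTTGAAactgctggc
E2f8 (chr7:48881597-48881716, minus strand): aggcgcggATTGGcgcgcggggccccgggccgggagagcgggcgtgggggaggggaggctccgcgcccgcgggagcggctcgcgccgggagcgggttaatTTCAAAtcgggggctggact
In Mcm6 the first capital run holds a pair of overlapping E2F matches on opposite strands, and another E2F match lies between its 2 CCAAT boxes. Ccnb2 had 3 CCAAT boxes in this stretch and Cdk1 had 2, beside 2 cell cycle homology regions in Cdk1. Outside the stretch shown, Cdk1 also had an E2F match 131 bases before the start, and Ccnb2 a cell cycle homology region 167 bases before it. E2f8 had 1 CCAAT box, 1 cell cycle homology region and no E2F match of these letters.

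Over the 250 bases before the start, 36 of the 43 members could be matched to the promoter table. A CCAAT box was found in 77.8% of them, against 37.5% of the 27025 genes in the table. A cell cycle homology region was found in 33.3% of the members, against 19.6% of all genes, and every member with one also had a CCAAT box, a pair found in 7.0% of all genes. An E2F match was rarer, in 4 of 36 members (11.1%), against 2.2% of all genes, and 3 of those 4 were among the 6 licensing genes matched. These counts describe letters in a window and not bound sites.

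Levels differed widely among the members. Per kilobase of exon, over all 17 libraries, Pcna had the highest mean normalized level at 169, followed by Tk1 at 108.0, Mcm7 at 77.0, Cdc20 at 60.3 and E2f8 at 55.3. The lowest per kilobase were Melk at 4.04, Kif23 at 4.47 and Cenpe at 6.15. The members' summed normalized reads were 3699 to 13845 in KO_star livers, 4263 to 5076 in WT_star livers, 3300 to 3555 in KO livers and 4439 to 6991 in WT livers. The KO libraries thus lay below every other library in this sum.

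Most members moved together from library to library. Against the mean of the other members, centred per gene, 17 of 43 had a Pearson correlation of at least 0.9 over the 17 libraries, and E2f8 was the 1 member below 0, at -0.36. Tk1 at 0.32 and Ccne1 at 0.43 were next. These values are descriptions, since all members share their libraries and KO_star 16 weighs on each of them. Library KO_star 16 was the highest of all 17 in 40 of the 43 members, with a median of 3.42 times the mean of the other KO_star libraries, and 38 members were at least 2 times that mean, against 3.13% of all genes. WT 26 was the lowest WT library in 37 members, with a median of 0.41 times the mean of the other WT livers, and 25 members were at or under 0.5 times that mean, against 3.81% of all genes. KO_star 17 was the lowest of its group in 28 members, at a median of 0.40 times the mean of the other KO_star libraries. In it 26 members were at or under 0.5 times that mean, against 3.48% of all genes. That mean includes the high KO_star 16, so 0.40 overstates how far KO_star 17 lay below the others. The remaining KO_star libraries also had medians below 1, from 0.58 to 0.86. Over all genes tested the medians of the same ratios were close to 1, at 0.986 for KO_star 16 and 0.996 for WT 26.

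**Figure D1:**
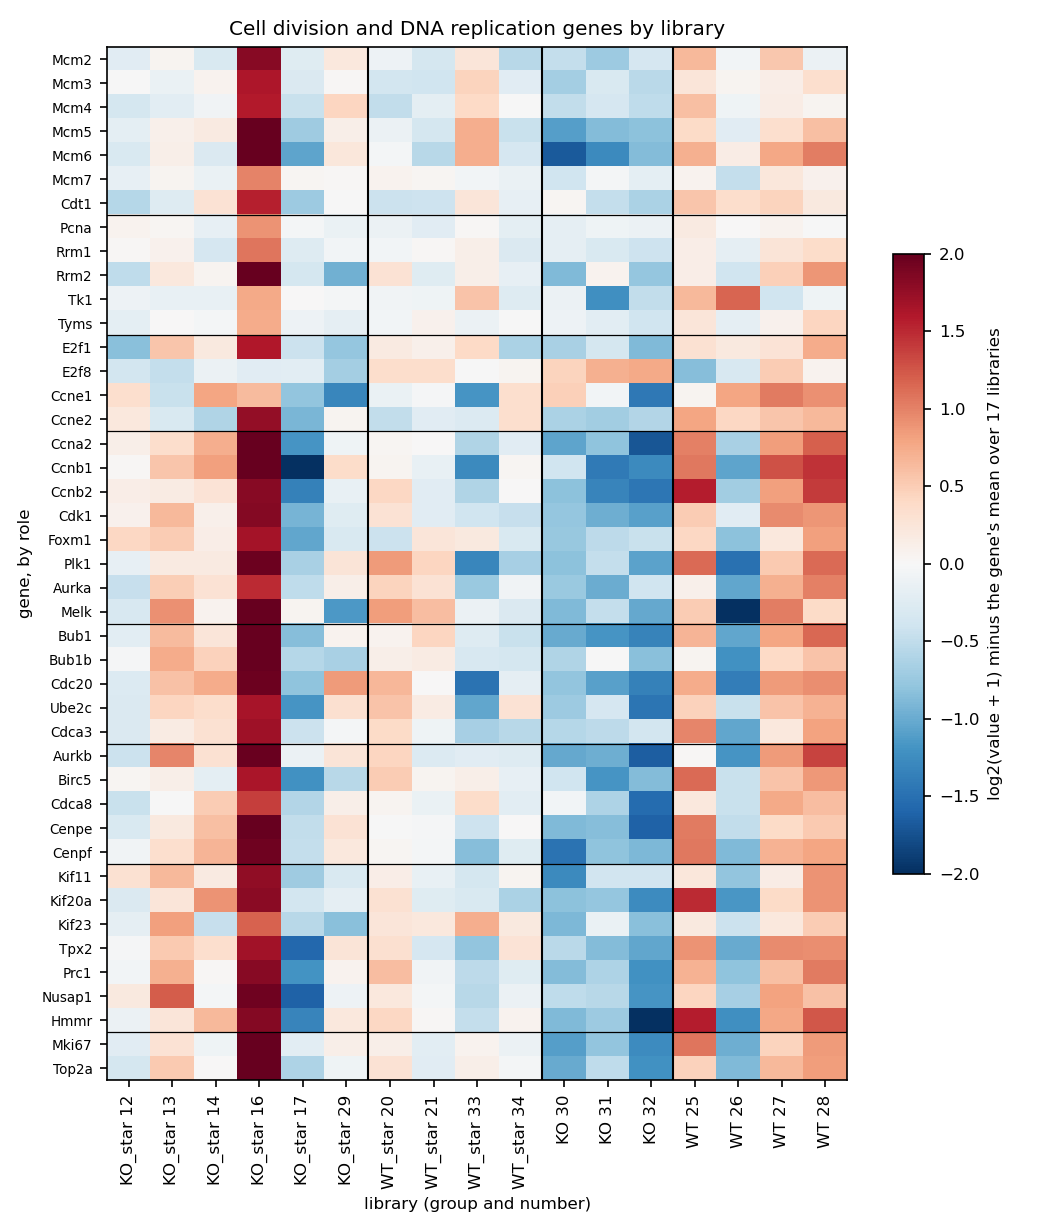
Level of the 43 genes (rows, ordered by role, with lines between roles) in each of the 17 libraries (columns, by group), as log2(value + 1) minus the gene's mean over all libraries, with the colours ending at -2 and 2. KO_star 16 is red in nearly all rows, KO 30, KO 31 and KO 32 are blue in most, WT 26 is blue in the mitotic rows, and the row of E2f8 runs against the rest.

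The first comparison asked how KO livers of the KO line differed from WT livers of the WT line. All members but E2f8 had lower fitted values in KO livers, but no member changed by the test across all genes. The median log2 change of the 43 members was -1.03, against 0.01 over all genes tested, and 42 of 43 were below 0, against 48.7% of all genes. By limma with Benjamini-Hochberg adjustment 0 of 43 had an adjusted p under 0.05, where 2.89% of all genes did. At an unadjusted p under 0.05, 21 were lower (48.8%, against 9.01% of all genes) and 1 was higher, which was E2f8 (2.33%, against 7.69%). In 13 members all KO values lay below all WT values (30.2%, against 9.49% of all genes).

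Among the licensing and helicase genes the median log2 change was -0.75 over 7. Mcm6 (chromosome 1, 128331590 to 128359664, minus strand), a subunit of the Mcm2-7 helicase, had values of 30.3, 40.8 and 54.1 in KO livers, against 164, 111, 171 and 204 in WT livers. Every KO liver was below every WT liver, and the groups were far apart (log2 change -1.94 ± 0.63 (SE), adjusted p = 0.12 by limma). Mcm3, another subunit, had 94.2, 123 and 104 in KO livers, against 179, 158, 166 and 192 in WT livers, again without overlap but with a smaller difference (log2 change -0.70 ± 0.34 (SE), adjusted p = 0.31 by limma). Mcm7 had 251, 325 and 290.3 in KO livers, against 349, 239, 390.4 and 352 in WT livers, and here the groups overlapped, because WT 26 was the lowest of them all (log2 change -0.19 ± 0.22 (SE), adjusted p = 0.74 by limma). Mcm2, Mcm4 and Mcm5, the other subunits measured, and the loading factor Cdt1 had no overlap either. The size of the gap thus varied among subunits of 1 complex, from Mcm6 with the widest to Mcm7 with the narrowest.

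The clamp and the genes for nucleotide supply had the smallest differences of any role, with a median of -0.45 over 5. Pcna had 353, 376 and 367 in KO livers, against 452, 401, 418 and 397 in WT livers. The KO values were all lower, by a small margin (log2 change -0.19 ± 0.18 (SE), adjusted p = 0.66 by limma). Tk1, thymidine kinase of the salvage pathway, had 485, 223 and 371 in KO livers, against 823, 1175, 399.5 and 494 in WT livers, and the groups overlapped (log2 change -0.95 ± 0.35 (SE), adjusted p = 0.18 by limma). WT 26 had the highest Tk1 value of the 17 libraries while it was low in most other members. Tk1 shares 169 bases with Afmid on the opposite strand, and Afmid was also highest in WT 26, at 1549. The part of Afmid reads in the Tk1 values was not tested. Rrm1, Rrm2 and Tyms lay between 43.7 and 288 in KO livers and between 61.6 and 423 in WT livers.

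The genes of S phase entry divided. Cyclin E2 (Ccne2) had 43.7, 41.7 and 45.3 in KO livers, against 118, 91.2, 100.4 and 107 in WT livers, with no overlap (log2 change -1.24 ± 0.43 (SE), adjusted p = 0.14 by limma). E2f1, an activator of S phase genes, also had no overlap, with 32.5, 39.95 and 27.6 in KO livers, against 64.03, 59.1, 62.8 and 87.1 in WT livers. Ccne1 (cyclin E1) had 47.1, 31.96 and 11.8 in KO livers, against 34.7, 58.3, 69.6 and 63.8 in WT livers, where the values overlapped. E2f8 was the exception of the whole set and is described below on its own.

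The mitotic cyclins and kinases had a median log2 change of -1.29 over 8. Ccnb2 (cyclin B2; chromosome 9, 70407692 to 70421547, minus strand), whose promoter is shown above, had the largest fitted difference of all members. Its values were 29.1, 20.4 and 18.7 in KO livers, against 157, 32.03, 93.6 and 139.8 in WT livers. All KO livers were below all WT livers, although WT 26 came within a few reads of KO 30 (log2 change -1.97 ± 0.59 (SE), adjusted p = 0.089 by limma). Ccna2 (cyclin A2) had 42.6, 50.6 and 26.6 in KO livers, against 181, 56.7, 161 and 206 in WT livers (log2 change -1.79 ± 0.57 (SE), adjusted p = 0.11 by limma). Cdk1 (chromosome 10, 69335146 to 69352938, minus strand), the kinase that both cyclins activate, had 38.1, 32.9 and 30.5 in KO livers, against 93.4, 55.9, 128 and 123 in WT livers (log2 change -1.47 ± 0.46 (SE), adjusted p = 0.1 by limma). Neither gene had overlapping values, and in both WT 26 was the WT liver nearest to the KO livers. Cyclin B1 (Ccnb1), Foxm1, Plk1, Aurka and Melk overlapped, in each case because WT 26 was lower than at least 1 KO liver. Melk was near the limit of detection, with 4 to 7 reads in KO libraries and 1 to 17 reads in WT libraries.

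Genes of the checkpoint and of the anaphase-promoting complex had a median of -1.16 over 5. Cdc20, which activates that complex, had 51.6, 41.7 and 34.4 in KO livers, against 151, 33.7, 163 and 171 in WT livers. In 3 WT livers it was well above every KO liver, while WT 26 was below all of them (log2 change -1.36 ± 0.66 (SE), adjusted p = 0.32 by limma). Cdca3, a factor for entry into mitosis, showed the same layout, with 53.8, 55.9 and 61.99 in KO livers, against 160.1, 38.6, 93.6 and 141 in WT livers (log2 change -0.73 ± 0.48 (SE), adjusted p = 0.5 by limma).

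The centromere and passenger complex genes had the largest median, -1.47 over 5, and all 5 had an unadjusted p under 0.05. Cenpf, a kinetochore protein, had 28.02, 45.3 and 42.3 in KO livers, against 166, 42.7, 129 and 139 in WT livers, and WT 26 alone lay among the KO values (log2 change -1.47 ± 0.50 (SE), adjusted p = 0.14 by limma). Birc5 (survivin), a subunit of the passenger complex, had 35.9, 20.4 and 25.6 in KO livers, against 106, 34.5, 70.8 and 87.1 in WT livers (log2 change -1.34 ± 0.49 (SE), adjusted p = 0.17 by limma). Cenpe, a kinetochore motor, was the 1 gene of this role without overlap, at 23.5, 23.97 and 13.8 in KO livers, against 91.6, 31.2, 58.2 and 63.8 in WT livers.

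Spindle, motor and cytokinesis genes had a median of -1.25 over 7. Kif20a, a motor of the central spindle, had 48.2, 49.7 and 35.4 in KO livers, against 242, 37.8, 112 and 161 in WT livers (log2 change -1.35 ± 0.56 (SE), adjusted p = 0.23 by limma). Prc1, which bundles the microtubules of the midzone, had 41.5, 49.7 and 32.5 in KO livers, against 125, 43.5, 118 and 158 in WT livers (log2 change -1.29 ± 0.55 (SE), adjusted p = 0.24 by limma). Both overlapped through WT 26 alone. Of the chromosome structure genes, Mki67 (chromosome 7, 135689784 to 135716361, minus strand), the proliferation marker Ki-67 that coats mitotic chromosomes, had 150.2, 186 and 134 in KO livers, against 682, 164, 439 and 586 in WT livers (log2 change -1.40 ± 0.51 (SE), adjusted p = 0.17 by limma). Top2a (topoisomerase II alpha) had 89.7, 127 and 77.7 in KO livers, against 249.9, 97.7, 285 and 325 in WT livers (log2 change -1.18 ± 0.52 (SE), adjusted p = 0.27 by limma). In these as well, WT 26 was the single WT liver near or inside the KO range.

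**Figure D2:**
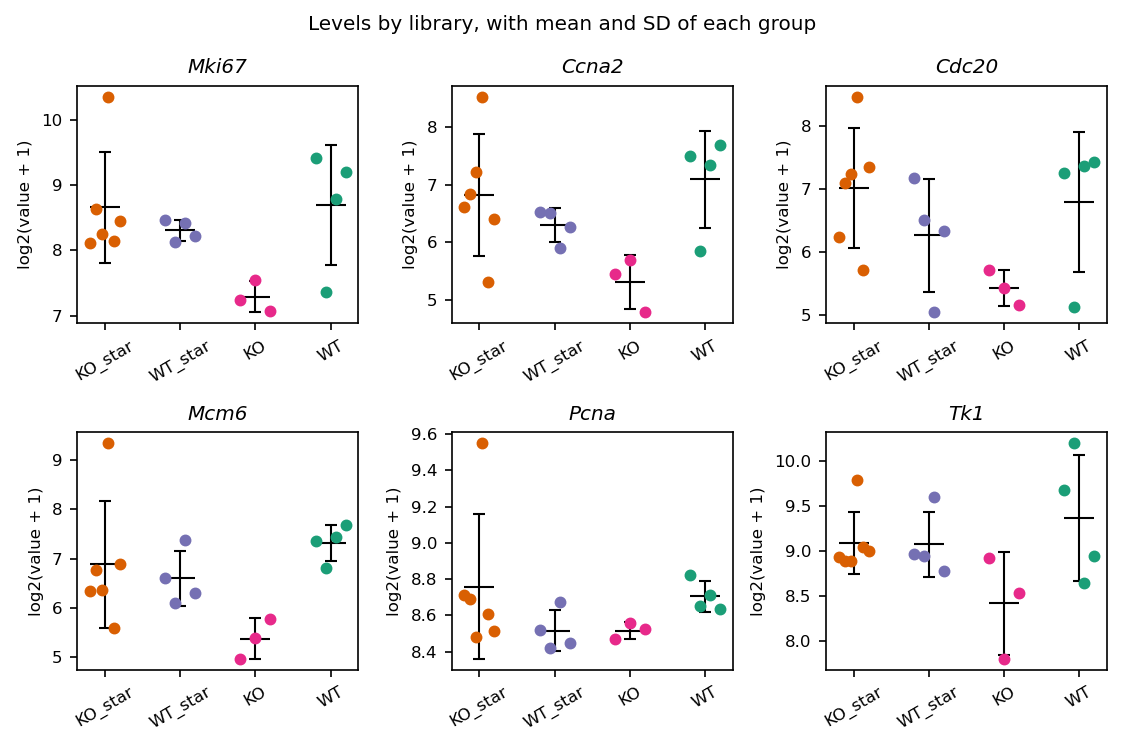
Level of 6 members in each library (points) on the log2(value + 1) scale, with the group mean (horizontal bar) and SD (whiskers) for KO_star (n = 6), WT_star (n = 4), KO (n = 3) and WT (n = 4); the vertical axes differ and do not start at 0. KO livers are lowest in Mki67, Ccna2 and Mcm6 apart from WT 26 and KO_star 17, whereas Pcna spans a narrow range and the high Tk1 value of the WT group is WT 26.

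How firmly the KO difference stands depends on the libraries in the fit. Without WT 26 and KO_star 16, 25 of 43 members were lower in KO (58.1%, against 2.34% of all genes lower), with a median log2 change of -1.35. Among them were Mki67 (log2 change -1.85 ± 0.17 (SE), adjusted p = 3.6e-05), Cenpf (log2 change -1.90 ± 0.29 (SE), adjusted p = 0.0019), Ccnb2 (log2 change -2.46 ± 0.38 (SE), adjusted p = 0.0023), Top2a (log2 change -1.56 ± 0.24 (SE), adjusted p = 0.0026) and Mcm6 (log2 change -2.11 ± 0.34 (SE), adjusted p = 0.0033), all by limma. Those libraries were left out because they stood apart in these very genes, which lowered the SE of the members named. The same limit holds for every fit without them below, and the test above is the one over all livers. Without WT 26 alone, 6 members were called, all lower (2.41% of all genes called). Without KO_star 16 alone, which is in neither group compared but shares the model and its estimate of the spread, 11 were called, all lower (3.82% of all genes called), and the median log2 change was as with all libraries, -1.03. With all libraries, DESeq2 called 7 members lower and 1 higher, which was E2f8 (5.35% of all genes called). Limma with library weights called 14 lower (7.92% of all genes), limma on KO and WT alone 7 lower (4.77%), and edgeR 0 (2.71%).

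E2f8 (chromosome 7, 48866429 to 48881596, minus strand) went the other way. Its values were 389, 471 and 483 in KO livers, against 158, 230.0, 409 and 299.9 in WT livers, with overlap because WT 27 was above KO 30 (log2 change 0.78 ± 0.23 (SE), adjusted p = 0.074 by limma). KO_star livers had a lowest value of 179, a median of 233 and a highest of 263, and WT_star livers had 366, 366, 283 and 297. All 6 KO_star livers were below all KO livers, a layout of 5.82% of all genes, and also below all WT_star livers, a layout of 0.619%, and KO_star 16, the library highest in nearly all other members, was unremarkable here. Against KO, E2f8 fell in KO_star livers (log2 change -0.98 ± 0.21 (SE), adjusted p = 0.029 by limma). It was the 1 member called in that comparison, where 1.46% of all genes were called. The KO_star minus WT_star difference less the KO minus WT difference is here named the interaction of genotype and ancestry. It was also called for E2f8 (log2 change -1.32 ± 0.30 (SE), adjusted p = 0.039 by limma), and for no other member, with 1.29% of all genes called. Its KO minus WT part cannot tell genotype from line.

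E2f8 shares 3639 bases with Gm2788, a processed transcript on the opposite strand (chromosome 7, 48877958 to 48913040). The kit keeps strand, but no strand setting of the authors' counting is given in the sources used here, so reads of the pair cannot be told apart. Gm2788 averaged 1051 ± 310.2 in KO_star livers, 1389 ± 289 in WT_star livers, 1597 ± 286 in KO livers and 856 ± 185 in WT livers (SD, n = 6, 4, 3 and 4). The means of KO and WT_star livers were thus above that of KO_star livers, as for E2f8, and the WT mean was lowest. Single KO_star livers ran from 567 to 1536 in Gm2788 and overlapped every other group. Its own tests by limma gave adjusted p = 0.074 for KO against WT, adjusted p = 0.18 for KO_star against KO and adjusted p = 0.066 for the interaction. Its part in the E2f8 values was not tested. In all, 16 members overlap another annotated gene and 10 overlap one with a mean of at least 10, each of those on the opposite strand.

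**Figure D3:**
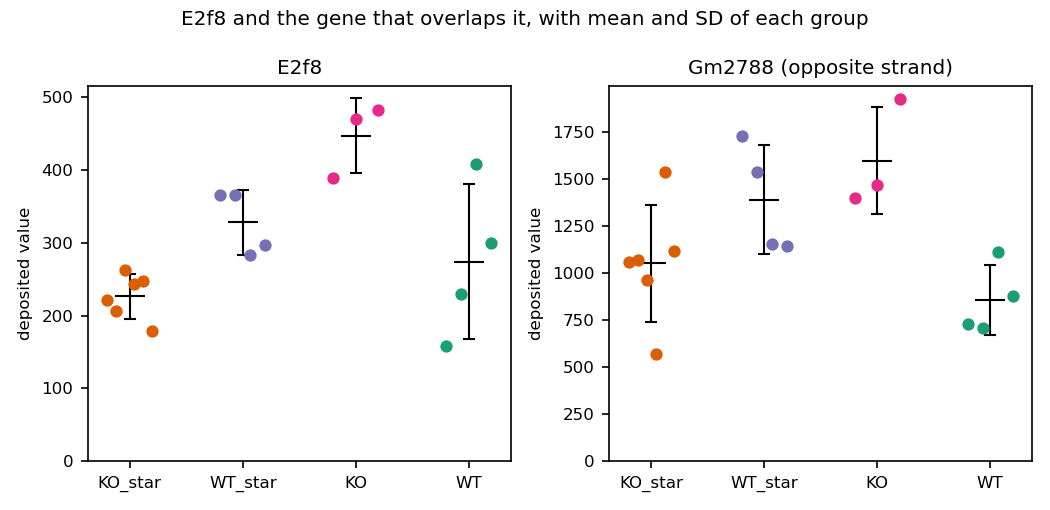
Normalized value of E2f8 and of Gm2788, the transcript that overlaps it on the opposite strand, in each library (points), with the group mean and SD. By group mean, KO livers are highest in both, KO_star livers are lowest in E2f8, and WT livers are lowest in Gm2788, while single livers of several groups overlap.

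The next comparison asked whether wild-type mice of mixed descent differed from WT mice. WT_star livers had somewhat lower values in most members, within the spread of the WT livers. The median log2 change was -0.39, against 0.00 over all genes, and 39 of 43 were below 0 (90.7%, against 49.6% of all genes). No member passed by limma, where 0.904% of all genes did, and none had an unadjusted p under 0.05, against 14.9% of all genes, while DESeq2 and edgeR also called 0. Only Ccne2 did not overlap, with 48.4, 57.98, 56.5 and 86.6 in WT_star livers, against 118, 91.2, 100.4 and 107 in WT livers (2.33% of members, against 4.83% of all genes). Ccnb1 had the most negative fitted change, with 31.4, 27.1, 11.8 and 30.9 in WT_star livers, against 63.1, 13.96, 74.2 and 83.1 in WT livers, where WT 26 lay inside the WT_star range (log2 change -1.01 ± 0.73 (SE), adjusted p = 0.56 by limma). Melk had the most positive, with 17.02, 14.5, 8.23 and 7.22 in WT_star livers, against 13.3, 0.821, 19.4 and 12.2 in WT livers, all of few reads (log2 change 0.40 ± 0.71 (SE), adjusted p = 0.85 by limma), and its sign turned without WT 26 (log2 change -0.38). Without WT 26 and KO_star 16, Mki67 alone was called (log2 change -0.83 ± 0.16 (SE), adjusted p = 0.046 by limma), where 0.281% of all genes were called.

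KO_star livers were then set against KO livers, which have the same genotype and another descent, and for which no sex is given. Apart from E2f8, all members had higher fitted values in KO_star livers, and none of these passed. The median log2 change was 0.99, against 0.00 over all genes, and 97.7% of the members were above 0, against 49.6% of all genes. At an unadjusted p under 0.05, 20 members were higher (46.5%, against 9.24% of all genes), and 9 had every KO_star liver above every KO liver (20.9%, against 5.31%). Aurkb (Aurora kinase B, the kinase of the passenger complex) had the largest fitted difference, with a lowest value of 17.2, a median of 29.01 and a highest of 95.9 in KO_star livers, against 11.2, 11.5 and 6.89 in KO livers. All KO_star values were above all KO values (log2 change 1.71 ± 0.51 (SE), adjusted p = 0.099 by limma). Mki67 had a lowest value of 276, a median of 327 and a highest of 1304 in KO_star livers, against 150.2, 186 and 134 in KO livers (log2 change 1.37 ± 0.47 (SE), adjusted p = 0.15 by limma). The groups did not overlap in Mki67 either, with or without KO_star 16. Mcm6 had a lowest value of 47.4, a median of 94.6 and a highest of 644 in KO_star livers, against 30.3, 40.8 and 54.1 in KO livers, and overlapped through KO_star 17. Without WT 26 and KO_star 16 the median was 0.70, and 3 members were higher, where 0.954% of all genes were called, namely Mki67 (log2 change 1.03 ± 0.16 (SE), adjusted p = 0.0045), Cenpf (log2 change 1.19 ± 0.26 (SE), adjusted p = 0.039) and Cenpe (log2 change 1.18 ± 0.26 (SE), adjusted p = 0.047), while E2f8 was no longer called (log2 change -1.01 ± 0.23 (SE), adjusted p = 0.052), all by limma. WT 26 and KO_star 16 were left out for their values in these very genes, so the calls without them are a description. E2f8 also missed the threshold when KO 30, KO 31, KO 32 or KO_star 29 was left out. DESeq2 called 11 members higher and 1 lower (5.04% of all genes called), limma with library weights 3 higher and 1 lower (5.26%), and edgeR 1 lower (1.29%), and the member called lower was E2f8 each time.

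WT_star livers against KO livers differ in both genotype and descent, and they share the KO livers with the comparison above. The median log2 change was 0.69, against 0.00 over all genes, and no member passed by limma, where 1.4% of all genes did, while DESeq2 and edgeR called 0. In 19 members every WT_star liver was above every KO liver (44.2%, against 7.98% of all genes). At an unadjusted p under 0.05 only Cenpe and Kif23 were higher (4.65% of members, against 7.2% of all genes). Mki67 had 351, 278, 339.9 and 298 in WT_star livers, against 150.2, 186 and 134 in KO livers, far apart on the scale of these groups (log2 change 1.02 ± 0.51 (SE), adjusted p = 0.4 by limma). Fitted on those libraries alone, Mki67 passed with adjusted p = 0.013 by limma (1.36% of all genes called), and without WT 26 and KO_star 16 Mki67 and Top2a passed (log2 change 1.02 ± 0.16 (SE), adjusted p = 0.0067 for Mki67 by limma; 2.05% of all genes called). Hmmr, a microtubule-binding protein of the spindle, had the largest fitted difference, with 81.5, 61.8, 43.5 and 63.9 in WT_star livers, against 32.5, 36.4 and 11.8 in KO livers (log2 change 1.30 ± 0.68 (SE), adjusted p = 0.43 by limma).

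Within the mixed descent, KO_star and WT_star livers differ by label in the genotype, and any difference in litter or batch cannot be told apart from it. The median log2 change of the members was 0.28, against 0.00 over all genes, 40 of 43 were above 0 (against 50.2% of all genes), and no gene of any kind passed by limma (0%). The single member with an unadjusted p under 0.05 was E2f8, lower in KO_star livers (log2 change -0.53 ± 0.19 (SE), adjusted p = 0.54 by limma; 2.33% of members, against 7.33% of all genes). Over all genes DESeq2 called 62 and edgeR 0, and each called 0 members. The positive median rested on 1 library, since without KO_star 16 it was -0.01. Cdc20 had the largest fitted difference, with a lowest value of 51.2, a median of 143 and a highest of 352 in KO_star livers, against 143, 89.9, 31.8 and 79.4 in WT_star livers (log2 change 0.75 ± 0.56 (SE), adjusted p = 0.84 by limma), and its highest value was that of KO_star 16 (log2 change 0.46 ± 0.40 (SE), adjusted p = 0.89 without WT 26 and KO_star 16). Mki67 had a lowest value of 276, a median of 327 and a highest of 1304 in KO_star livers, against 351, 278, 339.9 and 298 in WT_star livers, and the WT_star values lay within the range of the KO_star values. The 95% interval of its log2 difference was -0.58 to 1.28, which holds differences of either sign.

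**Figure D4:**
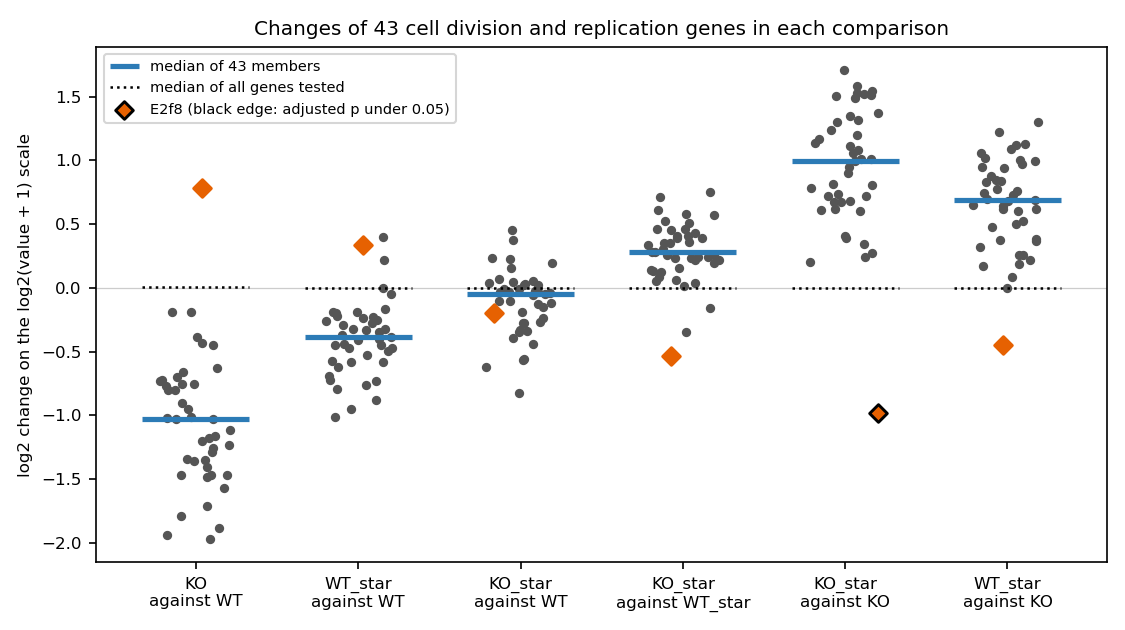
Log2 change of each of the 43 members (points) in 6 comparisons, with the median of the members (thick bar) and of all genes tested (dotted line); E2f8 is a diamond, with a black edge where its adjusted p was under 0.05 by limma. Comparisons share groups and are not independent. The medians are -1.03, -0.39, -0.05, 0.28, 0.99 and 0.69 in the order drawn, and E2f8 lies on the other side of 0 from the median in all of them but KO_star against WT.

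Against WT livers, KO_star livers showed little net difference. The median log2 change was -0.05, against 0.00 over all genes, with 30 members below 0 (69.8%, against 50% of all genes) and 13 above. No member passed by limma (0.706% of all genes), none had an unadjusted p under 0.05 (12.1% of all genes), and DESeq2 and edgeR called 0. Ccne1 had the most negative change, with a lowest value of 13.01, a median of 33.4 and a highest of 58.2 in KO_star livers, against 34.7, 58.3, 69.6 and 63.8 in WT livers (log2 change -0.83 ± 0.44 (SE), adjusted p = 0.47 by limma), and Melk the most positive, with a lowest value of 3.55, a median of 9.5 and a highest of 49.1 in KO_star livers, against 13.3, 0.821, 19.4 and 12.2 in WT livers (log2 change 0.45 ± 0.64 (SE), adjusted p = 0.82 by limma). Both groups were wide here. Without WT 26 and KO_star 16 the median was -0.67 and Mki67 was lower in KO_star livers (log2 change -0.81 ± 0.16 (SE), adjusted p = 0.026 by limma), where 0.455% of all genes were called, so the near-zero median depended on these libraries.

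The interaction of genotype and ancestry was positive for 42 of 43 members (97.7%, against 49.1% of all genes), with a median of 1.19 on the log2 scale, against -0.01 over all genes. At an unadjusted p under 0.05, 18 were above 0 (41.9%, against 8.67% of all genes), and none of those passed the adjustment. Ccnb1 had the largest value (log2 change 2.32 ± 1.03 (SE), adjusted p = 0.28 by limma). Its values were a lowest value of 5.68, a median of 41.7 and a highest of 137 in KO_star livers, 31.4, 27.1, 11.8 and 30.9 in WT_star livers, 22.4, 10.7 and 11.8 in KO livers and 63.1, 13.96, 74.2 and 83.1 in WT livers. KO_star 16 gave the highest of these Ccnb1 values and WT 26 the lowest of the WT livers (log2 change 2.53 ± 0.80 (SE), adjusted p = 0.17 without them). Mki67 had log2 change 1.76 ± 0.67 (SE), adjusted p = 0.21 by limma. The next fit left out libraries for their values in these very genes, so its calls are a description. Without WT 26 and KO_star 16, 11 members were called with positive values (25.6%, against 1.12% of all genes called), among them Mki67 (log2 change 1.86 ± 0.23 (SE), adjusted p = 0.00081) and Cenpf (log2 change 2.31 ± 0.37 (SE), adjusted p = 0.0084), and E2f8 was no longer called (log2 change -1.28 ± 0.33 (SE), adjusted p = 0.077), all by limma. With all libraries, DESeq2 called 9 members positive and 1 negative (4.3% of all genes called), limma with library weights 5 positive and 1 negative (5.36%), and edgeR 1 negative (1.28%), and the negative one was E2f8 each time. The E2f8 call was lost when any 1 of 12 of the 17 libraries was left out, WT 26 and each KO liver among them.

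Replication and mitotic genes did not always shift by the same amount within a library. The mean centred log2 level of the 7 licensing genes minus that of the 25 mitotic genes was 0.88 in WT 26 and 0.86 in WT_star 33, and between -0.60 and 0.58 in the other 15 libraries. In WT 26 the licensing genes were at -0.04 and the mitotic genes at -0.92. In WT_star 33 they were at 0.39 and -0.48. KO_star 16 was raised by nearly the same amount in both, 1.80 and 1.84. WT_star 33 also had the highest summed granulocyte markers, 36481 normalized reads, where no other library was above 1151. It had the highest macrophage markers as well, 13742, against 12861 in KO_star 13. The granulocyte sum was not broken down by gene, and Ngp among its markers was 11.8 in WT_star 33, against 11.6 in KO_star 13. Any part of other cells in the licensing level was not tested. Of the 17 granulocyte markers listed 15 were in the table and 6 passed the filter, while Ctsg, Camp, Cebpe and Cd177 had at most 3 reads in every library.

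**Figure D5:**
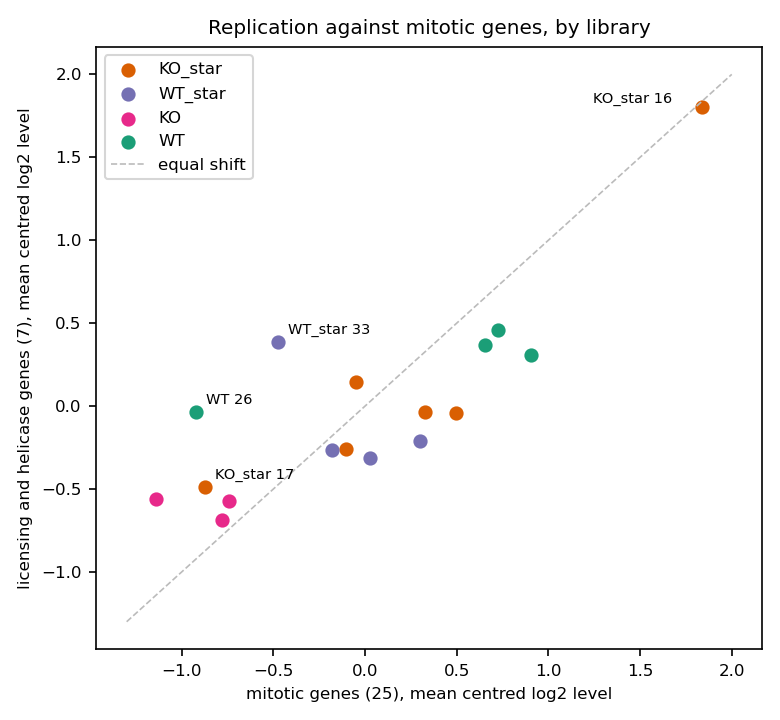
Mean centred log2 level of the 25 mitotic genes (horizontal) and of the 7 licensing and helicase genes (vertical) in each of the 17 libraries, coloured by group; the dashed line marks an equal shift in both. KO_star 16 lies at the upper end near the line, whereas WT 26 and WT_star 33 lie above it, with mitotic levels of -0.92 and -0.48 and licensing levels of -0.04 and 0.39.

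In KO_star 16 the granulocyte markers summed to 413 and the macrophage markers to 9360.0, below WT_star 33 in each. Its red cell precursor markers, a list of which 18 of 20 were in the table and 9 passed the filter, summed to 1606, against 4241 in KO_star 13 and at most 1787 in any other library. Its hepatocyte markers (3.15 M) and stellate cell markers (18509) were the highest of all libraries. Red cell precursor markers summed to 528 to 835 in KO livers, against 585 to 1787 in WT livers. In KO against WT 9 of 9 tested had fitted changes below 0 (48.7% of all genes), with none called. Of the 18 red cell precursor markers in the table, Hba-a1, Rhag, Rhd and Cldn13 had at most 3 reads in every library. KO livers had the lowest hepatocyte sums. By limma 3 of 10 hepatocyte markers were lower in KO against WT (1.57% of all genes were called lower), with adjusted p of 0.011 as the smallest. The 12 stellate cell markers summed to 11583 to 12051 in KO livers, against 14361 to 17321 in WT livers, without overlap, and Pdgfrb among them was lower in KO livers (log2 change -0.56, adjusted p = 0.049 by limma). Of 11 B cell and plasma cell markers tested, 10 had fitted changes above 0 in KO against WT (51.3% of all genes). The immunoglobulin gene Igkc was called higher, as 1.32% of all genes were, at 77.3, 72.8 and 52.2 in KO livers, against 27.6, 29.6, 18.3 and 18.2 in WT livers (adjusted p = 0.014 by limma). The part of cell composition in the members' values was not tested.

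The genes outside the set that followed it most closely were Knl1, with a Pearson correlation of 0.978 over the 17 libraries with the mean of the members, then Smc2, Dlgap5, Aspm, Smc4, Prr11, Cip2a, Anln, Ncapg2 and Iqgap3, down to 0.949. Of these 10, 8 stood in a list of further mitosis genes, among them kinetochore (Knl1), condensin (Smc2, Smc4 and Ncapg2) and spindle (Aspm) proteins. Of the 100 most alike, 50 were further mitosis genes, 10 further replication genes, 1 a G1 regulator and 1 a histone gene, and 38 were in none of these lists. The correlation shares its libraries and KO_star 16 among all genes. For Knl1 it was 0.965 without WT 26 and KO_star 16.

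Lists of related genes that hold no member were read in the same way, where 1.32% of all genes were called higher and 1.57% lower in KO against WT by limma. Further mitosis genes had a median log2 change of -0.93 over 79 tested, with 1 called higher and 2 lower, a share near that of all genes. Further replication genes had a median of -0.35 over 59, with 2 called lower. Cell cycle inhibitors and G1 regulators had -0.12 over 43 with none called, and replication-dependent histone genes had -0.01 over 48, with 4 called higher. Against KO, KO_star livers had medians of 0.95, 0.35, 0.05 and 0.13 in the same lists, with 2 further mitosis genes (Depdc1a and Psrc1) and 2 further replication genes (Fanci and Chaf1b) called higher, where 0.99% of all genes were. Without WT 26 and KO_star 16 these medians were 0.62, 0.15, 0.03 and 0.02, and those of KO against WT were -1.22, -0.42, -0.14 and -0.16. In KO against WT 40 of 77 further mitosis genes and 11 of 59 further replication genes were then called, all lower, where 2.34% of all genes were called lower. In KO_star against KO the counts were 3 and 2, all higher, where 0.954% of all genes were called in either direction. The libraries were left out for their levels of cell division genes, so these counts are a description.

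Chaf1b, a subunit of the chromatin assembly factor that places histones behind the replication fork, was called in 3 comparisons. It had a lowest value of 43.6, a median of 67.7 and a highest of 146 in KO_star livers, 51.1, 45.4, 61.2 and 34.03 in WT_star livers, 39.2, 22.2 and 31.5 in KO livers and 90.7, 68.2, 82.2 and 119.6 in WT livers. KO livers were below all WT livers and below all KO_star livers. By limma it fell in KO against WT (log2 change -1.52, adjusted p = 0.015), rose in KO_star against KO (log2 change 1.22, adjusted p = 0.046) and was called in the interaction (log2 2.12, adjusted p = 0.018). The first call was lost without WT 28, KO 31 or KO 32, the second in 12 of 17 cases of 1 library left out, KO_star 16 and each KO liver among them, and the third without KO 31 or KO 32. Cenpa, the histone H3 variant of centromeres, had 137, 123 and 126 in KO livers, against 285, 205, 197 and 234 in WT livers (log2 change -0.82, adjusted p = 0.042 by limma), with no overlap, and that call was lost in 11 of 17 cases of 1 library left out, each KO and WT liver among them.

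A few genes of the lists had other patterns. Ccnf (cyclin F, which marks proteins for degradation during the cycle) rose in KO against WT, at 265, 469 and 451 in KO livers, against 56.9, 55.03, 118 and 159 in WT livers (log2 change 2.11, adjusted p = 0.028 by limma), and was lost without WT 25, WT 26, KO 31 or KO 32. Fanci, of the DNA crosslink repair pathway, had 1, 3 and 1 reads in KO libraries, against 27, 8, 22 and 19 in WT libraries (adjusted p = 0.022 by limma). Depdc1a, a gene of mitosis, had 1, 2 and 1 reads in KO libraries, against 20, 4, 11 and 23 in WT libraries (adjusted p = 0.028 by limma). Both calls were lost without any 1 KO or WT liver other than WT 26. Tob2, an antiproliferative regulator, fell in WT_star against WT (log2 change -0.95, adjusted p = 0.017) and in KO_star against WT (log2 change -0.76, adjusted p = 0.037), by limma, and of 17 cases of 1 library left out the first call was lost in 5 and the second in 10, with WT 26, WT 27 and WT 28 in both and KO_star 16 in the second. Those comparisons share the WT livers, in which Tob2 had 1708, 1955, 1810.3 and 1974, against a lowest value of 841, a median of 1082 and a highest of 1636 in KO_star livers and 922, 821, 874 and 1298 in WT_star livers. The histone genes called (H4c17, H1f4, H2aw and H4c8 in KO against WT, H4c17 also in KO_star against WT, and H3c15 in WT_star against WT) belong to families of several related genes. How reads were assigned among related copies was not tested, so their values may be uncertain. H4c17 had 54, 51 and 32 reads in KO libraries, against 2, 2, 1 and 0 in WT libraries, and 2 reads in WT_star 20, WT_star 33 and KO_star 14. It had 26 to 47 reads in the other KO_star libraries, 21 in WT_star 21 and 19 in WT_star 34 (KO_star against WT: log2 change 3.47, adjusted p = 0.035 by limma).

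Among regulators named whatever their values, Ccnd1 (cyclin D1), which carries growth signals into G1, had a lowest value of 2000.2, a median of 3023 and a highest of 4544 in KO_star livers, 2781, 2980.3, 1341 and 4951 in WT_star livers, 4756, 3554 and 3671 in KO livers and 5229.9, 4853, 4738 and 4285 in WT livers. Of the KO livers, KO 30 lay within the WT range and the others below it, and WT_star 33 was the lowest of all. Cdkn1a (p21), an inhibitor of cyclin-dependent kinases, had 67.3, 519 and 118 in KO livers, against 187, 30.4, 284 and 219 in WT livers, a spread that leaves no order of the groups. Uhrf1, which keeps DNA methylation through replication, had a lowest value of 24.8, a median of 45.8 and a highest of 487 in KO_star livers, 37.6, 23.2, 115 and 29.9 in WT_star livers, 17.9, 23.97 and 13.8 in KO livers and 81.8, 37.8, 61.6 and 81.1 in WT livers. Its highest values were those of KO_star 16 and WT_star 33. Cdc6, which loads the helicase with Cdt1, had 7.85, 12.4 and 6.89 in KO livers, against 28.5, 11.5, 33.1 and 25.3 in WT livers, and Mybl2, an activator of mitotic genes, had 14.6, 15.98 and 5.9 in KO livers, against 7.11, 9.86, 9.13 and 10.1 in WT livers, with overlap in each.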

How the data were processed

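Total RNA of liver was sequenced after ribosomal RNA depletion with a kit that keeps strand, per the labels' protocols. Per the submitters' processing notes, HISAT2, cutadapt, DESeq2 and GRCm38 were used. Versions, counter, annotation and strand setting: not given in the sources used here. Per gene and library the authors deposited a signal, which is the read number scaled by a size factor of that library: with a tolerance of 0.001 reads, 100.0% of values were whole multiples of what 1 read is worth. Identifiers were matched to GENCODE M21 (26963 of 27020), and gene spans are on GRCm38. All 30 pairs of libraries within groups differed by more than sampling noise (chi-square per degree of freedom 8.53 to 102), so each was 1 sample. Floors of reads cover counting error only. The SEs and the interval of the Mki67 difference come from the limma fit and measure the spread between livers.

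The test was limma 3.58.1 (R 4.3.3) on log2(value + 1), with 1 model of all 17 libraries with a mean per group and a trended, robust variance (statmod 1.5.0). It was two-sided, p-values were adjusted by Benjamini-Hochberg over 16157 genes, and the threshold was 0.05. Fold changes on this scale understate the change of low genes. edgeR 4.0.16 and DESeq2 1.42.0 on the recovered reads, other pseudocounts, filters and scalings, library weights, fits on the groups compared and left-out libraries were the alternatives. The script was tested on simulated counts. Members and lists were chosen with earlier results of these data known. Members named are the 2 with the highest mean in each role, those called and the largest rise and fall per comparison, with Mcm6, E2f1, Cenpe and other members of small counts or shown promoters added after their values were seen. Genes of other lists are up to 4 called per list and comparison and 6 named whatever their values.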

Additional observations from a re-analysis of the deposited data

Results flagged for a closer look

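Within groups of 4 to 6 libraries, single values far from the rest were looked for in 126 groups of values. Chance alone flags about 5% of such groups when they are independent, which these are not, since the genes share their libraries and move together and KO_star 16 was known to be high in them. The 31 values of single genes that stood apart, 24 of them the high value of KO_star 16, are thus a description. Among the replication genes of KO_star 16 these were Mcm3 at 467.6, Mcm6 at 644.3, Mcm7 at 659.3, Pcna at 748.1, Tk1 at 884.4 and Ccne2 at 233.0, with Cdc6 at 101.4, Uhrf1 at 487.4, Chaf1b at 145.8 and Fanci at 64.98 outside the set. Among the mitotic genes they were Ccna2 at 368.5, Ccnb1 at 137.1, Ccnb2 at 188.6, Cdk1 at 237.0, Melk at 49.13, Cdc20 at 351.9, Cdca3 at 262.3, Cenpf at 309.1, Birc5 at 149.8 and Hmmr at 219.5. Mki67 at 1304 and Top2a at 751.3 were likewise above the other KO_star livers, as were Cenpa at 349.5 and Depdc1a at 34.87 outside the set.

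In WT 26 Cdc20 was low at 33.68, against 151.2 to 171 in the other WT livers. The mean log2 level of the members in WT 26 was 5.716, against 6.80 to 6.98 in the other WT livers. In WT_star 33 Mcm3 was high at 205.8, Kif23 at 54.1 and Uhrf1 at 115.3. In WT_star 20 Aurkb was high at 32.25. Psrc1 was high in WT 25 at 12.45, and H4c17 was low in KO_star 14 at 2.118, each from few reads.

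By the test of the interaction of genotype and ancestry with limma, the difference of KO_star from WT_star livers was unlike that of KO from WT livers for E2f8 (log2 -1.32, adjusted p = 0.039), Chaf1b (log2 2.12, adjusted p = 0.018), the histone gene H3c15 (log2 -1.89, adjusted p = 0.023), the hepatocyte markers Alb (log2 0.862, adjusted p = 0.012) and Ahsg (log2 0.81, adjusted p = 0.016), and the immunoglobulin gene Igkc (log2 -1.74, adjusted p = 0.044). KO and WT livers also differ in line, which cannot be told apart from genotype. Leaving out 1 library at a time ended the call in 12 of 17 cases for E2f8, 2 for Chaf1b, 3 for H3c15, 2 for Ahsg and 13 for Igkc.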

How the results depend on the processing

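No paired analysis was possible because no library number occurs in more than 1 group. For KO against WT the members called were 0 by limma, 1 with equal library totals (E2f8, higher), 8 by DESeq2, 14 with library weights, 7 on the groups compared and 25 without WT 26 and KO_star 16; leaving out 1 library gave 0 to 11, the highest without KO_star 16, with 6 without WT 26. For KO_star against KO they were 12 by DESeq2, 4 with library weights and 3 without WT 26 and KO_star 16, and 0 to 1 without 1 library. For the interaction they were 10 by DESeq2, 6 with library weights and 11 without WT 26 and KO_star 16, and 0 to 1 without 1 library. WT_star against KO gave 1 on the groups compared and 2 without WT 26 and KO_star 16, and WT_star against WT and KO_star against WT gave 1 each without WT 26 and KO_star 16. The median of KO_star against WT_star turned to -0.014 without KO_star 16, with or without WT 26 (-0.014 to 0.50 without 1 library). The median of KO_star against WT turned to 0.065 with edgeR and 0.054 with DESeq2, moved to -0.67 without WT 26 and KO_star 16, and ranged from -0.36 to 0.10 without 1 library, with 0.012 without WT 25, 0.021 without WT 28 and 0.10 without KO_star 17. Melk turned to -0.38 in WT_star against WT without WT 26, with or without KO_star 16, and in KO_star against WT to -0.0685 with library weights, -0.72 without WT 26 and KO_star 16 and -0.32 without WT 26, with up to 0.78 and 0.84 without WT 27. E2f8 in KO_star against WT turned to 0.019 without WT 27 (-0.43 without WT 25). The cause of these shifts was not tested. The median of KO against WT kept its sign in every alternative run, from -1.35 to -0.94. Without 1 library, E2f8 in the interaction had adjusted p = 0.051 to 0.11 by limma in the 12 cases in which its call was lost, and in KO_star against KO adjusted p = 0.051 to 0.14 in 4 cases. Groups of 3 to 6 livers and few reads for genes such as Melk limit these values.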
